A study of Mus musculus with 27 samples.

Results

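The 10 genes described here are markers of mural cells and parts of the contractile apparatus, out of 55487 genes counted in the developing mouse optic stalk (OS). They are Pdgfrb, Rgs5 and Cspg4, which mark pericytes, Acta2, Tagln and Myl9, which encode smooth muscle filament proteins, and Cald1, Cnn2, Tpm1 and Tpm2, which encode proteins that bind actin and regulate it. They were named by symbol and were selected in part on the measured levels of Pdgfrb and Cald1 in dorsal against ventral controls, so those levels are given as a description with no test. All 10 were found in the table, and 9 of them had more than 10 counts in at least 3 libraries. Tagln did not, and it enters no model across genes.

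RNA was taken by laser capture from the dorsal OS, the ventral OS and the axons of retinal ganglion cells at embryonic day 14, in 4 control and 5 Smarcc1-DCT-cKO embryos, which gave 27 libraries in 6 groups. All embryos were on a C57Bl6/J background. The mutants carried loxP sites in both copies of Smarcc1 (Baf155), a core part of the SWI/SNF chromatin remodeller, together with Dct-Cre and the Z/EG reporter of recombination, and the controls were littermates without Dct-Cre. Dct-Cre acts in pigmented lineages and in the OS, and recombination is mosaic in the optic disc, so captured tissue can hold cells that were not recombined. Batch A held 1 control and 3 mutant embryos, and batch B held 3 control and 2 mutant embryos. Levels are in CPM (counts per M counts of the library, M standing for mega), and a library with at most 3 counts of a gene (0.0883 to 0.275 CPM) is at the floor of detection for it.

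Mural cells wrap small vessels and are recruited by platelet-derived growth factor that endothelium secretes and that PDGFRβ receives. Pericytes on capillaries carry PDGFRβ, RGS5 and NG2 (the product of Cspg4), while smooth muscle cells on arteries add alpha smooth muscle actin, transgelin and smooth muscle myosin. Caldesmon, calponin 2, the tropomyosins and the regulatory myosin light chain also occur in cells outside muscle, where they act on stress fibres and cell shape. PDGFRβ is known from fibroblasts and mesenchyme too, and around the embryonic eye such mesenchyme comes largely from the neural crest.

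Libraries held 10.9 to 34.0 M counts in total, and 9225 to 16810 genes were detected. Smarcc1 averaged 144 ± 97.9, 129.8 ± 56.9 and 124 ± 88.7 CPM (SD, n = 4) in dorsal, ventral and axon controls and 54.5 ± 44.9, 33.5 ± 19.6 and 18.3 ± 18.2 CPM (SD, n = 5) in the mutants. Some libraries stood apart. Dorsal mutants 1 and 2 held Smarcc1 at 94.9 and 107 CPM, inside the range of the dorsal controls (75.9 to 289 CPM), while the other 3 dorsal mutants held 2.26 to 44.3 CPM. Values without both are given below for Pdgfrb, Cnn2, Cald1, Acta2 and Tpm1, and 0 members were called by edgeR without them, as with them. Dorsal control 3 had the highest summed level of 16 mesenchyme genes (12528 CPM), of 11 skeletal muscle genes (501 CPM) and of 9 erythroid genes (24360.0 CPM) among dorsal libraries, and the lowest of 7 melanin synthesis genes (43.5 CPM). In axon mutant 4, Myl9 and Cnn2 had 0 counts although both were above the floor in the other 4 axon mutants. The captured material is bulk tissue, so fewer cells of a type and less RNA per cell cannot be told apart.

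The defining markers of mural cells were present unevenly. In dorsal controls several pericyte markers were counted. Mcam, an adhesion molecule of pericytes and endothelium, was above the floor in 4 of 4 dorsal controls, at 55.9 to 147 CPM. It did not exceed 28.8 CPM in dorsal mutants, and every mutant lay below every control for 1.61% of all genes. Abcc9, Anpep, Vtn, Foxf2 and Tbx18 were each above the floor in 3 of 4 dorsal controls, and Vtn had 0 counts in all 5 dorsal mutants. These genes lie outside the fixed set of markers and are given as examples. Other markers were scarce. Myh11, the heavy chain of smooth muscle myosin, was above the floor in 3 of 27 libraries, at 12.8 CPM in dorsal mutant 1, 8.84 CPM in ventral control 1 and 25.7 CPM in axon mutant 3. Cnn1, the calponin of smooth muscle, was above the floor in 2 libraries and did not exceed 1.37 CPM. Kcnj8, a potassium channel subunit of pericytes, was above the floor in 3 libraries, with 57.9 CPM in dorsal control 4, 24.7 CPM in dorsal mutant 2 and 5.45 CPM in dorsal mutant 5. Des, of the fixed set, stood at 0.832 CPM in dorsal control 1, 41.1 CPM in dorsal control 2 and 7.84 CPM in dorsal mutant 5. It was at the floor in all other libraries. Higd1b, another pericyte marker, was at the floor in every group. Notch3, a receptor of mural cells that neural progenitors also express, was above the floor in all dorsal and ventral libraries, at means of 33.9 ± 13.1 CPM in dorsal controls (SD, n = 4) and 33.6 ± 15.7 CPM in dorsal mutants (SD, n = 5). Since the markers did not go together, the 10 genes are called by their names below rather than by a cell type.

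**Figure D1:**
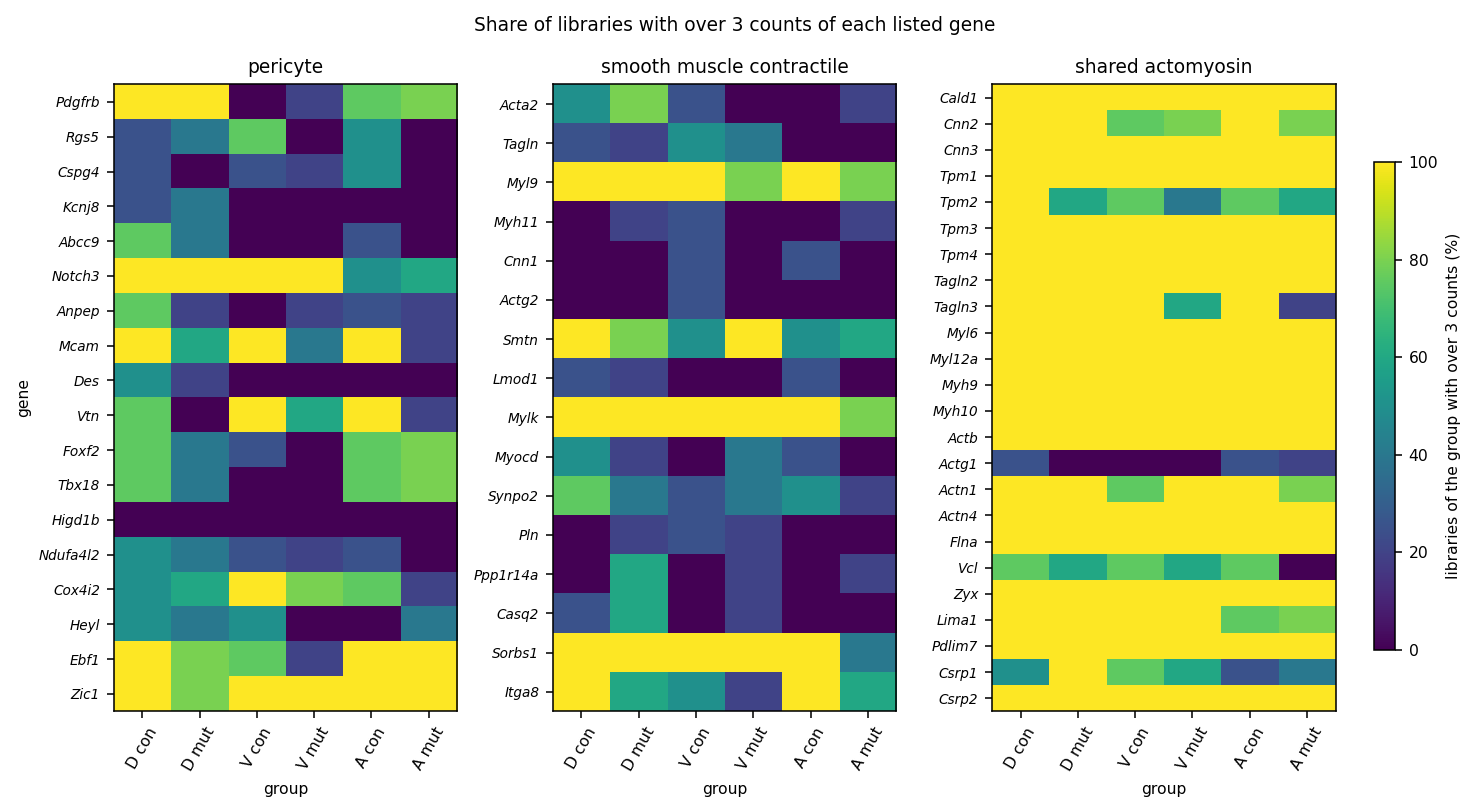
Share of libraries of each group (D, dorsal; V, ventral; A, axon; con, control, n = 4; mut, mutant, n = 5) with over 3 counts of each gene on lists of pericyte, smooth muscle contractile and shared actomyosin genes, as colour from 0 to 100%. Higd1b is at the floor in all groups and Myh11 in most libraries, whereas Cald1 and Tpm1 are above it in every library.

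The genes fell into those counted nearly everywhere and those counted in scattered libraries. Cald1 and Tpm1 were above the floor in 27 of 27 libraries, Myl9 in 25 and Cnn2 in 24. Tpm2 was above it in 18 libraries and Pdgfrb in 17. Rgs5 and Acta2 were above it in 8 libraries each, Tagln in 6 and Cspg4 in 5. Levels between genes are compared per kb of exonic bases, and on that scale the median level over the 27 libraries was 67.1 CPM per kb for Myl9, 45.2 for Tpm1, 15.7 for Cnn2, 15.1 for Cald1, 3.29 for Tpm2 and 0.34 for Pdgfrb, with the medians of Rgs5, Acta2 and Tagln at 0.

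**Figure D2:**
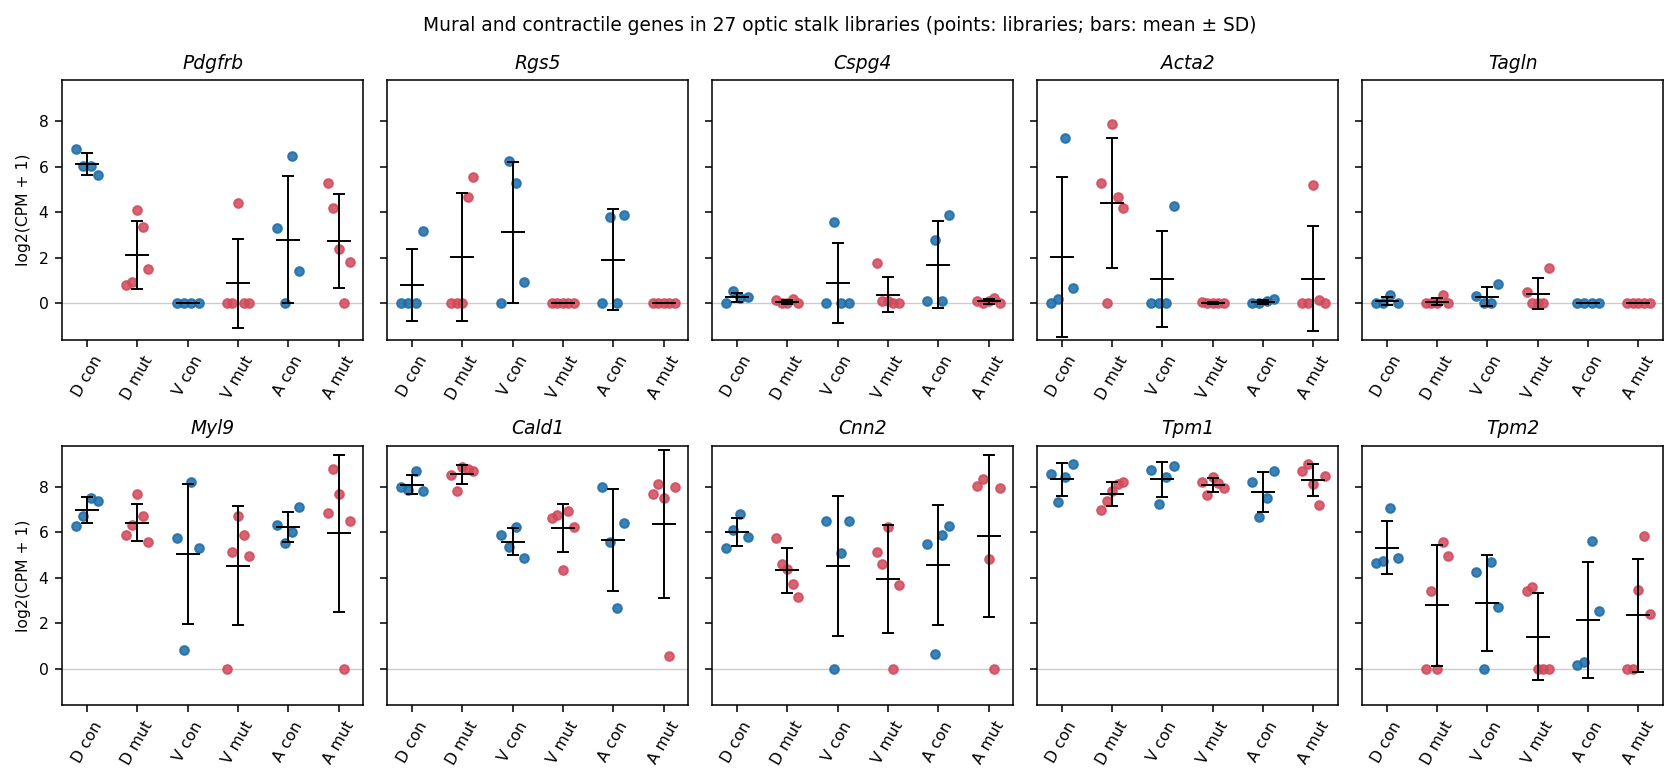
Level of the 10 genes as log2(CPM + 1), with 1 point per library (blue, controls, n = 4; red, mutants, n = 5), the mean as a horizontal mark and the SD as a bar, by group (D, dorsal; V, ventral; A, axon). Pdgfrb separates dorsal controls from dorsal mutants and ventral controls, but its levels in these controls chose the gene. Tpm1 lies between 100.002 and 509 CPM in all libraries, and Rgs5, Cspg4, Acta2 and Tagln are at or near 0 in most.

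Pdgfrb (ENSMUSG00000024620.11, chromosome 18, 61045150 to 61085061, mm10) encodes the receptor for PDGF-B. The 4 dorsal controls held 109, 64.4, 65.2 and 48.5 CPM of it, and it had 0 counts in all 4 ventral controls. The dorsal mean, 71.8 ± 26.0 CPM (SD, n = 4), was at least 388-fold above the floor of the ventral controls. Dorsal mutants held 0.734, 0.894, 16.0, 9.24 and 1.86 CPM, so each of the 5 lay below each of the 4 dorsal controls. The edgeR log2 fold change of mutant against control was -3.71 ± 1.28 (SE, n = 5 and 4) in the dorsal OS, -4.21 within batch A and -3.41 within batch B. It ranged from -4.71 (without mutant 3) to -3.39 (without control 1) with each library left out, was -4.57 without mutant 4, and was -3.19 without mutants 1 and 2. These values share the dorsal controls that chose the gene and carry no test, and every mutant lay below every control for 1.61% of all genes tested in this comparison.

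Genes of mesenchyme were, like Pdgfrb, lower in dorsal mutants than in dorsal controls. In the dorsal OS all 15 tested genes of the 16 on the mesenchyme list were lower in the mutants on average, 0 of them called by edgeR (0.0124% of all genes were) and 9 with an unadjusted p under 0.05 (5.35% of all genes), and their median difference in log2(CPM + 1) was -4.37, beside 0.0064 for all genes. The summed level of the list was 1414 to 12528 CPM in dorsal controls and 76.5 to 442 CPM in dorsal mutants. Within these groups the sum and Pdgfrb did not keep the same order. Dorsal control 1 had the lowest sum of the controls (1414 CPM) and the highest Pdgfrb (109 CPM). Dorsal mutant 5 had the highest sum of the mutants (442 CPM) with 1.86 CPM of Pdgfrb. On this list Tcf21 was at the floor in both groups and Col6a1 in the mutants. Col3a1, a fibrillar collagen, averaged 1580.1 ± 1818 CPM in dorsal controls (SD, n = 4) and 30.6 ± 38.2 CPM in dorsal mutants (SD, n = 5). Pdgfra, the related receptor of mesenchyme, averaged 139 ± 119 and 4.58 ± 9.97 CPM in the same groups. Endothelial genes, summed over 12 genes, gave 293 to 506 CPM in dorsal controls and 65.6 to 653 CPM in dorsal mutants. Those ranges overlapped through dorsal mutant 3 (653 CPM), while the other dorsal mutants held 65.6 to 254 CPM. Of the 12 genes 9 were lower in mutants, with a median difference of -0.81 in log2(CPM + 1). Genes of stalk glia summed to 2707 to 3607 CPM in dorsal controls and 943 to 1814 CPM in dorsal mutants, with 8 of 8 lower in mutants and a median difference of -1.33 in log2(CPM + 1). Melanin synthesis genes summed to 43.5 to 5003 CPM in dorsal controls and 2939.9 to 11800.3 CPM in dorsal mutants, with 7 of 7 higher and a median difference of 3.22. The part of these cell types in the level of Pdgfrb or of the lists below was not tested.

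Outside the dorsal OS, Pdgfrb was scattered. Ventral mutants had 0 counts in 4 libraries and 19.9 CPM in ventral mutant 3. Axon controls stood at 8.90, 0, 86.9 and 1.69 CPM and axon mutants at 37.6, 17.1, 4.15, 0 and 2.53 CPM. The axon groups overlapped, with p = 0.96 in a two-sided exact permutation test (n = 4 and 5). Within mutants, Pdgfrb was higher in the dorsal than in the ventral library of the same number in 4 of 5 pairs, with p = 0.125 in a two-sided exact permutation test (n = 5), where the smallest possible is 0.0625. The edgeR adjusted p was 0.927 for that comparison and ranged from 0.041 (DESeq2, which called 6.16% of all genes) to 1 over the alternatives. DESeq2 also called Pdgfrb and Tpm2 between ventral and axon mutants, with 17.1% of all genes, where the edgeR adjusted p was 0.573 and 0.711.

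**Figure D3:**
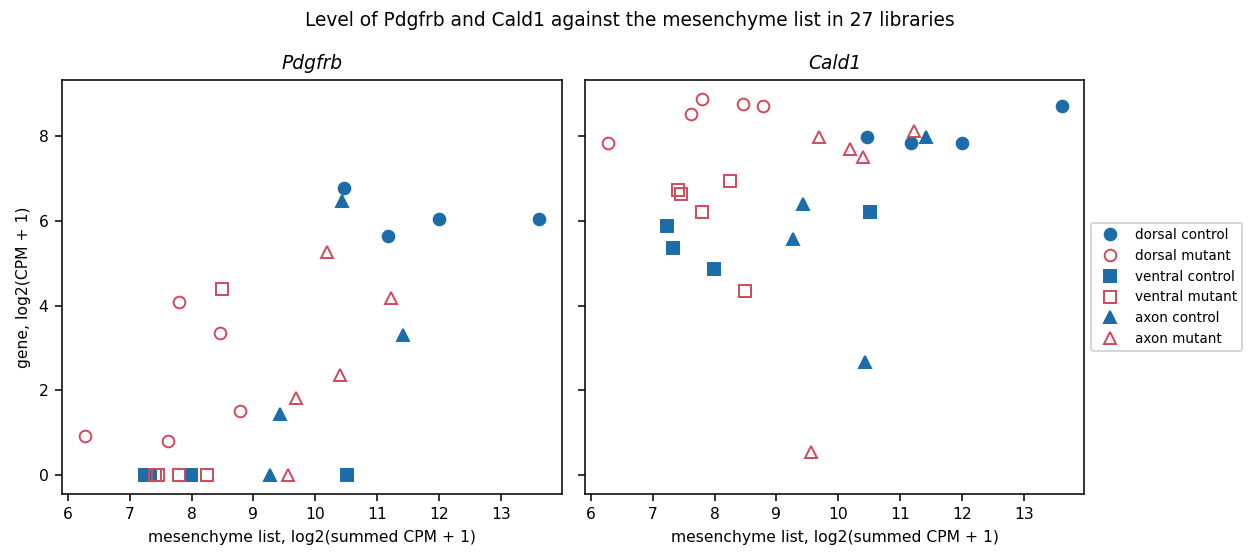
Level of Pdgfrb (left) and Cald1 (right) as log2(CPM + 1) against the summed level of the 16 mesenchyme genes on the same scale, with 1 point per library. Dorsal controls (filled circles) lie high on both axes for Pdgfrb. The dorsal mutants (open circles) have low mesenchyme sums and Cald1 levels of 226 to 468 CPM. Levels in dorsal and ventral controls chose both genes, so the plot is a description.

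Rgs5 (ENSMUSG00000026678.10, chromosome 1, 169655501 to 169695813) encodes a regulator of G protein signalling that is abundant in pericytes. Its levels in ventral controls were 0, 74.8, 37.5 and 0.932 CPM, and all 5 ventral mutants had 0 counts. The mean of the ventral controls, 28.3 ± 35.6 CPM (SD, n = 4), was at least 175-fold above the floor of the mutants but rested on controls 2 and 3. A two-sided exact permutation test gave p = 0.0476 over all splits and 0.1 within batches (n = 4 and 5), and the edgeR unadjusted p was 0.0259 with an adjusted p of 0.999, while DESeq2 called Rgs5 together with 2.12% of all genes. In the axons the controls stood at 0, 13.0, 0 and 13.8 CPM and all 5 mutants at 0, with p = 0.167 in a two-sided exact permutation test (n = 4 and 5). In the dorsal OS the mean was higher in mutants. Controls had 0 in 3 libraries and 8.01 CPM in control 4, and mutants had 0 in 3 libraries with 24.4 CPM in mutant 4 and 45.7 CPM in mutant 5. The groups shared their zeros in all regions. All 8 libraries with Rgs5 were of batch B, and every library of batch A had 0 counts. Batch A held 1 control and 3 mutant embryos, so zeros of mutants and of batch A partly coincide. The ventral and axon mutants of batch B had 0 counts too. The part of batch in these levels was not tested.

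Cspg4 (ENSMUSG00000032911.6, chromosome 9, 56865033 to 56899870), which encodes the proteoglycan NG2 of pericytes and oligodendrocyte precursors, was nearly absent from the counts. It exceeded 1 CPM in 4 libraries, namely ventral control 2 (10.8 CPM), ventral mutant 1 (2.37 CPM), axon control 2 (5.78 CPM) and axon control 4 (13.6 CPM). Ventral control 2, axon control 2 and axon control 4 also held Rgs5, but not every library with Rgs5 held Cspg4.

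The wider pericyte list of 18 genes includes Pdgfrb, Rgs5 and Cspg4, and it is described without Pdgfrb because the dorsal controls chose that gene. In the dorsal OS 16 other genes of the list were tested. Of these 13 were lower and 3 higher in the mutants on average, with a median difference in log2(CPM + 1) of -1.595 beside 0.0064 for all genes. By edgeR 0 were called, against 0.0124% of all genes, and 3 had an unadjusted p under 0.05, against 5.35% of all genes. The summed level without Pdgfrb was 575 to 837 CPM in dorsal controls and 36.6 to 194 CPM in dorsal mutants, without overlap. Of single genes, 1.61% had every dorsal mutant below every dorsal control. In ventral controls the sum without Pdgfrb was 303 to 575 CPM. There 7 listed genes (Pdgfrb, Kcnj8, Abcc9, Anpep, Des, Tbx18 and Higd1b) were at the floor, so the sum is not a measure of pericytes. In the ventral OS 12 of 14 tested genes were lower in mutants, with a median difference of -0.59 beside -0.034 for all genes. Of these 14, 4 had an unadjusted p under 0.05 by edgeR, against 3.19% of all genes. In the axons 10 of 15 were lower, with a median of -0.49 beside -0.23 for all genes. There 1 of 15 had such a p, against 3.55% of all genes. In both regions 0 were called, where 0.0% of all genes were. The PDGF axis list (7 genes of ligands and receptors) had, without Pdgfrb, 3 genes lower and 3 higher in dorsal mutants with 0 called (0.0124% of all genes were), and Pdgfb, the ligand of endothelium, was at the floor in ventral controls, ventral mutants and axon controls.

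Acta2 (ENSMUSG00000035783.9, chromosome 19, 34241090 to 34255590) encodes alpha smooth muscle actin. In dorsal mutants it stood at 38.2, 0, 235, 24.5 and 16.9 CPM, and in ventral mutants no library exceeded 1 count. The dorsal mutant mean, 62.9 ± 97.2 CPM (SD, n = 5), was at least 389.8-fold above the floor of the ventral mutants, a bound that rested on mutant 3 and was 123-fold without it. The dorsal library was higher in 4 of 5 pairs and at 0 in mutant 2. The edgeR unadjusted p was 0.000675 and the adjusted p 0.295, and the latter ranged from 1.99e-07 (DESeq2) to 0.934 over the alternatives. A two-sided exact permutation test gave p = 0.125 (n = 5). Among mutants, 2 of 9 members tested (Acta2 and Cald1) had an unadjusted edgeR p under 0.05 in dorsal against ventral libraries, where 4.04% of all genes did, and 0 were called, where 0.0371% of all genes were.

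Dorsal controls overlapped the mutants for Acta2, with 0, 0.124, 153 and 0.606 CPM, and the value of 153 CPM came from control 3. In the other groups Acta2 was above the floor in ventral control 4 (18.1 CPM) and axon mutant 3 (35.7 CPM). The dorsal mutants also stood above the axon mutants, which had a mean of 7.16 ± 16.0 CPM (SD, n = 5). That log2 fold change was 7.55 ± 2.91 (SE) beside a median of 1.42 over all genes, but 2.89 ± 2.39 without the replicate block and 6.85 without mutants 1 and 2, with an edgeR adjusted p of 0.541, where 0.266% of all genes were called and DESeq2 called Acta2 with 18.3% of all genes. DESeq2 also called Acta2 for the genotype effect in the ventral OS minus that in the axons, with 12.1% of all genes, where the edgeR adjusted p was 1.

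Actins of skeletal and cardiac muscle were present in some of the same libraries. Dorsal control 3 held 159.6 CPM of Acta1, the actin of skeletal muscle, and 101 CPM of Actc1, the actin of heart and embryonic skeletal muscle, which was named here after its values were seen. Actc1 stood at 55.2 CPM in dorsal control 4, 109.6 CPM in dorsal mutant 4 and 44.3 CPM in dorsal mutant 5, while dorsal mutant 3, with the highest Acta2, had at most the floor of both. Across the 27 libraries, which share embryos and depth, Pearson's r of Acta2 with Actc1 was 0.52 and with Acta1 0.49. Myod1 and Myog, which direct skeletal muscle fate, were above the floor in 2 and 3 libraries. Reads that fit several of the near-identical actin genes can be lost or split in counting, so levels of single actin genes are uncertain, and the part of skeletal muscle in the Acta2 level was not tested.

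Tagln (ENSMUSG00000032085.5, chromosome 9, 45929619 to 45936058), which encodes transgelin of smooth muscle, did not exceed 1.96 CPM and had 0 counts in 21 of 27 libraries. On the opposite strand Gm48529 and Pcsk7 (named after their values were seen) share 67.9% of its exonic bases, and counting without strand would leave reads on shared bases unassigned. The strand setting is not given in the sources used here, so the low count of Tagln is not read as absence. Gm48529 had 0 counts in all libraries, and Pcsk7 reached 54.1 CPM.

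Myl9 (ENSMUSG00000067818.6, chromosome 2, 156775420 to 156781658) encodes the regulatory light chain of smooth muscle and nonmuscle myosin, and it was the most abundant of the 10 per kb. It stood at 76.4, 103, 179 and 163 CPM in dorsal controls and at 57.2, 78.0, 203, 102 and 46.4 CPM in dorsal mutants, which overlapped. The dorsal log2 fold change of mutant against control was -0.42 ± 0.62 (SE) with an edgeR adjusted p of 1, and it turned to 0.0305 without mutant 5 and to 0.56 within batch A. Ventral levels were 53.2, 0.763, 295 and 38.7 CPM in controls and 0, 34.1, 103, 57.6 and 29.8 CPM in mutants. Axon levels were 79.4, 44.6, 63.3 and 135 CPM in controls and 115, 436, 201, 0 and 87.9 CPM in mutants. Both regions overlapped between genotypes, with exact permutation p values of 0.778 and 0.976 (two-sided, n = 4 and 5). Among mutants the dorsal library was above the ventral library of its number in 5 of 5 pairs, which was true of 3.21% of all genes. The exact permutation p there was 0.0625, the smallest possible with n = 5 (two-sided), and the edgeR adjusted p was 0.928.

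Promoters of contractile genes are known for the CArG box, the element that serum response factor binds. RefSeq promoter windows (GRCm38.p6) were matched for 8 of the 10 genes, 9 windows in all. In each, 250 bases before the start were searched for a CArG box without mismatch, which reads as a CArG box on both strands. No other motif was searched. The windows of Myl9 and Cnn2 held 1 each and the other 7 held none, while 1.47% of all 32851 windows held one. These 2 sequences are printed because they are the matches among the 10 genes. The CArG box is in capitals, the rest is in lower case, and each run is on the plus strand and stops before the annotated gene. The box starts 161 bases before the RefSeq start of Myl9 and 56 bases before that of Cnn2. A match is a description of letters and not evidence of binding.
Myl9, chr2:156775214-156775419: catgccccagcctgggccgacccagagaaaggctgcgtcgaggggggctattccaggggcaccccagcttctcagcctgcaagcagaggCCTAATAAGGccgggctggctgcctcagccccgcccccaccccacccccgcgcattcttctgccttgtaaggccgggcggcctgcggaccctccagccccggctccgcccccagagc
Cnn2, chr10:79988350-79988583: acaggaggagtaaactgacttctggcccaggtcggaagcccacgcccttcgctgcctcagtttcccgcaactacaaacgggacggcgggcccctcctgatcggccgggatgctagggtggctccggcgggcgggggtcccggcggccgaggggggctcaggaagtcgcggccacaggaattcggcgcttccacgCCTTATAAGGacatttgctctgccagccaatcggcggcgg

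Of the 16 smooth muscle contractile genes listed, which include Acta2, Tagln and Myl9, 12 were tested in the dorsal OS. There 8 were lower and 4 higher in mutants, with a median difference of -0.39 in log2(CPM + 1) and 0 called, where 0.0124% of all genes were. Among mutants 10 of 12 were higher in the dorsal than in the ventral OS, with a median difference of 0.55 beside -0.0024 for all genes and 0 called, where 0.0371% of all genes were. The summed level of the list ran from 154 to 920 CPM in dorsal controls and from 111 to 589 CPM in dorsal mutants, and Cnn1 and Actg2 were at the floor in both. A list of 12 genes on the axis of serum response factor and its coactivators had 11 tested in the dorsal OS, 5 higher and 6 lower in mutants, with 0 called. At shares this low, 0 called says nothing particular about these lists.

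Cald1 (ENSMUSG00000029761.16, chromosome 6, 34598500 to 34775473) encodes caldesmon, which binds actin and tropomyosin and restrains myosin. Its levels in dorsal controls were 250.3, 226, 416 and 226 CPM, against 58.1, 39.8, 73.4 and 28.1 CPM in ventral controls, a 5.61-fold ratio of means. This is the pattern that chose the gene, and the log2 fold change there, 2.51 ± 0.35 (SE, n = 4), has no test. For 1.32% of all genes every dorsal control lay above every ventral control.

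The mutant libraries lie outside that contrast, although members were chosen with earlier results of these data known. Dorsal mutants stood at 366, 226, 468, 434 and 416 CPM and ventral mutants at 98.8, 105, 19.2, 123 and 72.9 CPM, so every dorsal library was above every ventral library, as for 0.606% of all genes. The ratio of means was 4.56, and within pairs of one number the dorsal library was 3.71, 2.15, 24.3, 3.55 and 5.71 times the ventral one. The log2 fold change was 2.35 ± 0.48 (SE, n = 5), and 2.96 without mutant pairs 1 and 2, with an edgeR unadjusted p of 0.00139 and an adjusted p of 0.417. The adjusted p ranged from 8.44e-05 (DESeq2) to 0.949 over the alternatives. A two-sided exact permutation test gave p = 0.0625, the smallest that 5 pairs allow. Cald1 was therefore higher in each dorsal than in each ventral mutant library, without a call by edgeR.

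**Figure D4:**
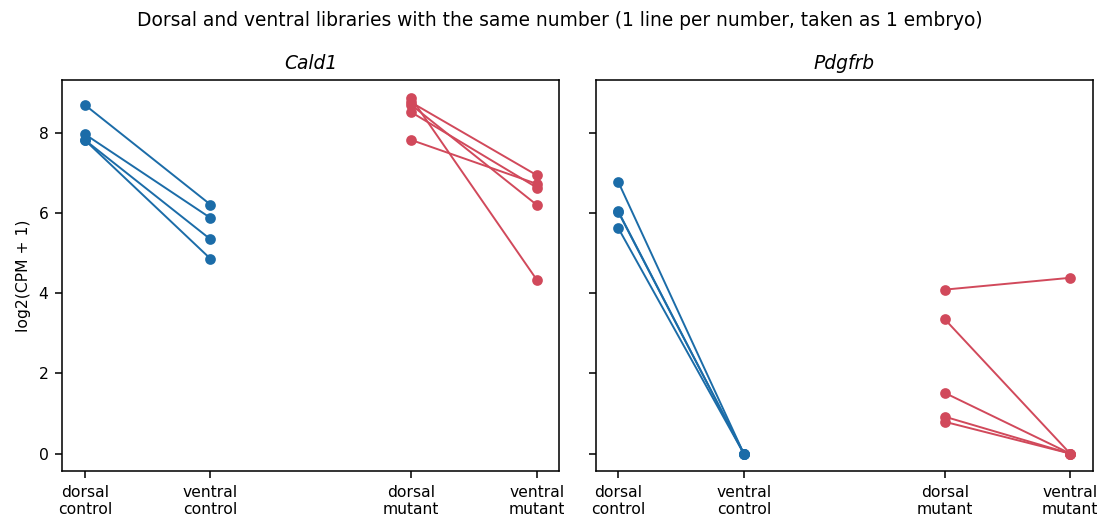
Level of Cald1 (left) and Pdgfrb (right) as log2(CPM + 1) in the dorsal and ventral library of each replicate number (lines), for 4 controls (blue) and 5 mutants (red). Cald1 is lower in the ventral library of all 5 mutant pairs, as were 3.21% of all genes. Pdgfrb is at 0 in the ventral mutants except mutant 3. The 4 control pairs are the contrast that chose both genes and are shown as a description.

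Sums of other lists in the same mutants mostly overlapped between the dorsal and ventral OS. Genes of stalk glia summed to 943 to 1814 CPM in the dorsal and 2607 to 4500.1 CPM in the ventral OS. Melanin synthesis genes overlapped, at 2939.9 to 11800.3 and 498 to 3775 CPM. Endothelial sums overlapped too, at 65.6 to 653 and 16.9 to 115 CPM. Cdh5, the cadherin of endothelium, was at 0 in all ventral mutants, while Pecam1, another endothelial marker, stood at 18.1 CPM in ventral mutant 4. The mesenchyme sums overlapped, at 76.5 to 442 and 168 to 358 CPM. The part of these cell types in the Cald1 level was not tested.

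Between genotypes Cald1 averaged 279.8 ± 91.8 CPM in dorsal controls (SD, n = 4) and 382 ± 94.7 CPM in dorsal mutants (SD, n = 5), with overlap, and 49.8 ± 19.9 and 83.8 ± 40.2 CPM in the ventral groups. No dorsal mutant held less Cald1 than the lowest dorsal control, and Pdgfrb and the mesenchyme sum in these mutants lay below all dorsal controls. The dorsal controls chose Cald1 and Pdgfrb, so this is a description without a test. Axon levels were 251, 46.4, 5.31 and 83.1 CPM in controls and 206, 275, 182, 0.467 and 249.6 CPM in mutants. That axon log2 fold change was 0.83 ± 1.09 (SE) with an edgeR adjusted p of 0.954, and it turned to -3.33 without mutant 5 and to -0.24 within batch A.

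Cnn2 (ENSMUSG00000004665.10, chromosome 10, 79988584 to 79996062), whose CArG box is printed above, encodes the calponin of nonmuscle cells. Dorsal controls stood at 38.7, 66.7, 109 and 53.9 CPM and dorsal mutants at 52.1, 23.5, 19.9, 12.1 and 7.84 CPM, so 4 of 5 mutants lay below every control and mutant 1 lay among them. The ratio of means was 2.90. A two-sided exact permutation test gave p = 0.0238 over all splits and 0.05 within batches (n = 4 and 5), where the smallest possible are 0.00794 and 0.025, and 26 such tests were made between genotypes. The edgeR log2 fold change was -2.06 ± 1.17 (SE) with an adjusted p of 0.938 (0.0642 to 1 over the alternatives), -2.93 within batch B and -0.31 within batch A, which holds a single control. It ranged from -2.92 (without control 1) to -1.46 (without mutant 5) with each library left out and was -2.34 without mutants 1 and 2.

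In the axons the Cnn2 mean was higher in mutants, with 43.1, 0.546, 58.2 and 75.9 CPM in controls and 264, 320.2, 27.6, 0 and 241 CPM in mutants. Of the mutants 3 lay above every control and mutant 4 below all. The log2 fold change was 1.73 ± 1.67 (SE) with an edgeR adjusted p of 0.911, and it turned to -3.82 without mutant 5. The genotype effect of Cnn2 did not pass the test of a difference between the dorsal OS and the axons (edgeR adjusted p 0.989). Ventral levels were 88.7, 0, 32.9 and 87.8 CPM in controls and 33.8, 23.2, 74.6, 0 and 11.9 CPM in mutants, which overlapped. Within mutants the ventral OS against the axons gave a log2 fold change of -2.85 ± 1.24 (SE) beside a median of 1.46 over all genes, with an edgeR adjusted p of 0.573, where 0.259% of all genes were called.

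Tpm1 (ENSMUSG00000032366.15, chromosome 9, 67022590 to 67049406) encodes a tropomyosin that lies along actin filaments, and it was above the floor in every library. Dorsal controls stood at 373, 158, 347 and 505 CPM and dorsal mutants at 124, 165, 219.9, 273 and 297 CPM. The ventral levels were 425, 148, 340.0 and 477 CPM in controls and 297, 199.9, 344, 281 and 245 CPM in mutants. In the axons they were 293, 100.002, 179.5 and 416 CPM and 417, 509, 273, 144 and 356 CPM. Each pair of groups overlapped. The dorsal log2 fold change of mutant against control was -0.58 ± 0.37 (SE) with an edgeR adjusted p of 0.953. The genotype effect in the dorsal OS minus that in the axons was -1.16 ± 0.46 (SE, n = 27), with an edgeR unadjusted p of 0.0211 and an adjusted p of 0.892 (0.0652 to 1 over the alternatives; -0.68 without dorsal mutants 1 and 2), where 4.95% of all genes had such an unadjusted p and 0.0122% were called.

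Tpm2 (ENSMUSG00000028464.16, chromosome 4, 43514711 to 43523765), the tropomyosin of smooth and slow skeletal muscle, was above the floor in all dorsal controls, at 23.9, 25.6, 132 and 27.8 CPM. Dorsal mutants held 0, 9.78, 0, 46.1 and 29.8 CPM. The value of 132 CPM was that of dorsal control 3, whose Acta1 level is given above, and the part of skeletal muscle in it was not tested. A two-sided exact permutation test between genotypes gave p = 0.167 (n = 4 and 5). In each of the 4 control pairs Tpm2 was higher in the dorsal than in the axon library, as for 8.69% of all genes, with p = 0.125 in a two-sided exact permutation test, the smallest possible with n = 4. The edgeR adjusted p was 0.8, and DESeq2 called Tpm2 with 6.53% of all genes.

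The list of 24 actomyosin genes shared by most cell types includes Cald1, Cnn2, Tpm1 and Tpm2, and it is described without Cald1. In the dorsal OS 22 were tested. Of these 17 were lower and 5 higher in mutants, with a median difference of -0.54 in log2(CPM + 1) beside 0.0064 for all genes and 0 called (0.0124% of all genes were). In the axons 12 were higher and 10 lower, with a median of 0.12 beside -0.23 for all genes. The summed level without Cald1 was 6650 to 7400.0 CPM in dorsal controls and 5086 to 6167 CPM in dorsal mutants, without overlap. Of single genes, 1.61% had every dorsal mutant below every dorsal control. Actb alone gave 1631 to 3122 CPM of this sum in dorsal libraries. The stalk glia and mesenchyme sums given above were lower in the same mutants, and their part in this sum was not tested.

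By edgeR 0 members were called in any of the 11 comparisons that carried a test. Between genotypes an unadjusted p under 0.05 was reached by 0 of 7 members tested in the dorsal OS (5.35% of all genes), 1 of 7 in the ventral OS (Rgs5, 3.19%) and 0 of 9 in the axons (3.55%), where 0.0124%, 0.0% and 0.0% of all genes were called. Between regions of controls it was reached by 0 of 7 for dorsal against axon (3.93%, with 0.0126% called) and 0 of 7 for ventral against axon (2.64%, with 0.0% called). Between regions of mutants it was reached by 2 of 9 for dorsal against ventral, 1 of 9 for dorsal against axon (Acta2, 8.31%) and 0 of 8 for ventral against axon (6.99%). For the interaction of genotype with region it was reached by 1 of 7 for dorsal against ventral (Rgs5, 2.29%, with 0.00612% called), 2 of 7 for dorsal against axon (Rgs5 and Tpm1) and 0 of 7 for ventral against axon (3.89%, with 0.0% called).

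The members did not vary as 1 group across libraries. Pearson's r of log2(CPM + 1) was taken over the 27 libraries, which share embryos, regions and depth. Between members it was highest for Cnn2 and Tpm1 (0.61), then for Myl9 and Cnn2 (0.56), Myl9 and Cald1 (0.54), and Rgs5 and Cspg4 (0.52). Pdgfrb gave -0.24 with Rgs5 and -0.27 with Cspg4. With the mesenchyme sum, r was 0.68 for Pdgfrb, 0.14 for Cald1 and 0.07 for Acta2. With single markers, r of Pdgfrb was 0.64 for Cdh5 of endothelium, and 0.54 for Col1a1 and 0.48 for Pdgfra of mesenchyme. Among 11015 genes with a mean of at least 5 CPM, the genes most like Pdgfrb were Adgre5 (r 0.72), Dock6 (0.66) and Lama4 (0.65). Those most like Acta2 were Igfbp7 (0.73), Coro1a (0.70) and Grik1 (0.66), and those most like Tpm1 were Kars (0.67), Sdf4 (0.64) and Sdha (0.64). These are correlations over libraries of several groups, given as a description. The libraries include the dorsal and ventral controls whose levels chose Pdgfrb and Cald1, and that choice enters every r of these genes. Rgs5 was above the floor in batch B alone, which enters its r with Cspg4.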

How the data were processed

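Per the labels, libraries came from laser-captured OS tissue by a full-length, PCR-amplified protocol without molecular identifiers, so floors cover counting error only. The authors mapped their reads (single-end) with STAR on mm10 and deposited raw HTSeq counts per gene (Seq2Science defaults), pooling no replicates; versions, annotation and strand setting are not given in the sources used here. Symbols and positions came from GENCODE M21 (55227 of 55487 identifiers matched). No pairs of libraries held identical counts (0 pairs).

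From the counts, CPM and edgeR 4.0.16 quasi-likelihood F-tests (R 4.3.3, TMM, more than 10 counts in at least 3 libraries, 16330 genes) were computed. Calls needed an adjusted p (Benjamini-Hochberg) below 0.05 with a log2 fold change beyond 0.58 either way. Genotypes were compared within a region with batch as a term, and regions within a genotype with the replicate number as a block, as were interactions over 27 libraries. Numbers were taken to mark embryos; same-numbered libraries deviated together only weakly (r 0.0018 to 0.148, median 0.038, over 0.1 in 3 of 27 pairs). Exact permutation tests used log2(CPM + 1). P-values measure the spread between embryos as labelled. Alternatives were RLE scaling, no filter, DESeq2 1.42.0, batch settings, no replicate block, leaving out each replicate and, added after seeing the data, leaving out dorsal mutants 1 and 2. The models were tested on simulated data. Members, gene lists and naming rules (all members; a fixed set of markers; the 3 genes most like Pdgfrb, Acta2 and Tpm1; listed genes that were called) were chosen with earlier results of these data known.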

Additional observations from a re-analysis of the deposited data

Results flagged for a closer look

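Of 60 combinations of member and group, 51 had a library above the floor, and 16 of these held a library whose gap to its neighbour took most of the range of its group. Chance gives about 1 such group in 20 for normally spread values, a rate that does not apply to sparse counts. In 6 of the 16 every other library was at 0, so the gap is the whole range by construction. The high ones were Pdgfrb in ventral mutant 3 (19.9 CPM, others 0), Rgs5 in dorsal control 4 (8.01 CPM, others 0), Cspg4 in ventral control 2 (10.8 CPM) and ventral mutant 1 (2.37 CPM), and Tagln in dorsal control 3 (0.295 CPM, 5 counts) and dorsal mutant 4 (0.276 CPM, 4 counts). Acta2 stood alone in dorsal control 3 (153 CPM), ventral control 4 (18.1 CPM) and axon mutant 3 (35.7 CPM). Dorsal control 3 was also the highest of its group for Cald1 (416 CPM, others 226 to 250.3) and Tpm2 (132 CPM, others 23.9 to 27.8).

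The low ones were Myl9 in ventral mutant 1 and axon mutant 4 (0 CPM each), Cald1 in ventral mutant 3 (19.2 CPM) and axon mutant 4 (0.467 CPM, others 182 to 275), and Cnn2 in axon control 2 (0.546 CPM, others 43.1 to 75.9). Ventral mutant 3 was thus the single ventral library with Pdgfrb and the lowest ventral mutant for Cald1.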

How the results depend on the processing

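None of the 122 edgeR alternatives called a member, like the fits reported, whereas DESeq2 called members in 6 comparisons with a test (0 by edgeR in each). They were 1 between genotypes in the ventral OS (Rgs5), 1 for dorsal against axon in controls (Tpm2), 3 for dorsal against ventral (Pdgfrb, Cald1 and Acta2), 1 for dorsal against axon (Acta2) and 2 for ventral against axon in mutants (Pdgfrb and Tpm2), and 1 for the genotype effect of ventral against axon (Acta2). DESeq2 also called more of all genes, for example 996 against 6 for dorsal against ventral in mutants and 532 against 2 between dorsal genotypes, where fitting without the filter called 101 and without the batch term 8. The cause was not tested.

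Without the replicate block, 0 members were called in any regional comparison or interaction, as with it. Over all genes, leaving out the replicate block moved the calls from 6 to 0 for dorsal against ventral, from 42 to 86 for dorsal against axon and from 41 to 70 for ventral against axon in mutants. In controls it moved them from 2 to 11 for dorsal against axon and from 0 to 5 for ventral against axon. In 15 of 27 pairs of regions and numbers, the best match of a library was the one of the same number.

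Of the fold changes given for single members, 132 values under alternatives with a test kept their direction and side of the threshold, 4 crossed it with DESeq2 and 5 turned their direction. A further 16 values of Pdgfrb between dorsal genotypes, which carry no test, moved by less than 1 SD between replicates. Leaving out dorsal mutants 1 and 2, or mutant pairs 1 and 2, was chosen after seeing the data. Without the replicate block the difference of Pdgfrb between dorsal and ventral mutants was 0.49 (6.68 with it) and that of Acta2 between dorsal and axon mutants 2.89 (7.55 with it). The turned ones are the axon difference of Cnn2 (1.73; -3.82 to 2.32 with each replicate left out), the dorsal difference of Myl9 (-0.42; 0.56 within batch A, -0.97 to 0.0305 with each replicate left out) and the axon difference of Cald1 (0.83; -0.24 within batch A, -3.33 to 1.54 with each replicate left out). With mutant 5 left out, mutant 4 alone stands for the mutants of batch B, and the fit assumes that it varies like the others.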

Other observations

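Genes outside the mural and contractile sets separated the regions of the mutants. In dorsal against ventral libraries edgeR called Dct, a melanin synthesis gene that also drives Cre here (637 ± 402 against 42.1 ± 32.9 CPM, SD, n = 5), and Vim, the intermediate filament of progenitors and glia (839 ± 227 against 1975 ± 473 CPM, SD, n = 5). Against the axons, Tyr and Dct were called higher and Nes, Vim and Map1b lower in the dorsal OS, and Nefm, Map1b and Kif1a, which serve axons, were called lower in the ventral OS. Nefm averaged 126 ± 62.5 CPM in ventral mutants and 1290.0 ± 375 CPM in axon mutants (SD, n = 5).

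Actg1, the cytoplasmic gamma actin, did not exceed 0.572 CPM in any of the 27 libraries, while Actb, the cytoplasmic beta actin, ranged from 1497 to 5233 CPM. Both were named after their values were seen. The low listing of Actg1 bears on how far counts of single actin genes, Acta2 among them, can be read, and its cause was not tested.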
